A study of Homo sapiens with 6 samples.

Results

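Solute carrier genes, named SLC with a family number, the letter A and a member number, were examined in MDA-MB-231. This established line comes from a breast cancer without hormone receptors or HER2 amplification, and its cells migrate readily in culture. Every gene of the deposited table whose symbol has this form and whose mean over the 6 libraries was at least 50 normalised read counts was taken, with 1 symbol set aside by the definition of the group. Of 16258 genes in the table, 199 then had a symbol of this form, 165 of them reached the mean of 50 and 34 did not. The 165 genes came from 40 families. Flask-grown cells were put into microfluidic devices, and the highly motile ones isolated there formed the migratory group, with unsorted cells as the control. RNA came from 1000 cells per sample and 3 samples per group, all maintained in DMEM with serum and penicillin-streptomycin, and the labels name no further treatment or genetic change. The RNA was amplified as full-length cDNA and sequenced, with 27032454 to 74227978 reads per library recovered from the deposited values. Together these exceed the read output that the labels give for the sequencing kit, and whether both mates of a pair were counted was not tested. Whether the 3 samples of a group were grown separately is not stated, and every p-value therefore rests on a spread that may be technical. How long unsorted cells stayed in a device is not stated either.

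Solute carriers are membrane proteins that move small molecules across the plasma membrane or organelle membranes without splitting ATP themselves. They bring in amino acids, glucose, vitamins and metals, carry lactate and acid out, and exchange metabolites across the inner mitochondrial membrane through the SLC25 family. Sodium-coupled carriers draw on the gradient kept up by the sodium pump, and ion carriers such as those of the SLC4 and SLC12 families set cell pH and volume, which moving cells regulate. The members were placed in 7 substrate classes by family and known substrate: 25 amino acid carriers, 16 carriers of sugars and lactate, 24 of inorganic ions, 20 of metals, 38 mitochondrial SLC25 carriers, 5 nucleotide sugar carriers of the SLC35A group, and 37 carriers of vitamins, nucleosides and other organic solutes. Other SLC35 subfamilies carry another letter in their symbol and are outside the group.

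No solute carrier passed the limma test between migratory and unsorted cells. The members' median difference was -0.091 on the log2 scale, with 76 members higher and 89 lower in migratory cells, beside a median of -0.026 over all 15786 genes tested. The lowest adjusted values belonged to a pair of amino acid carriers with low levels, SLC7A4 and SLC1A7, both at an adjusted p of 0.062 (limma, log2 of the normalised read count + 1, Benjamini-Hochberg over all genes tested). Of all genes tested 0.234% passed at 0.05, and 0.291% of those with a mean of at least 50. The quasi-likelihood test of edgeR on recovered reads also passed 0 members, beside 0.146% of all genes and 0.178% of those with a mean of at least 50. At an unadjusted limma p under 0.05 there were 17 higher and 16 lower members, together 33 of 165, beside 17.7% of all genes (7.7% higher and 10.0% lower) and 19.5% of genes with a mean of at least 50 (9.44% and 10.1%). DESeq2 on recovered reads passed 11 members, 4 higher and 7 lower, together 6.67%, beside 5.91% of all genes (2.31% higher and 3.6% lower) and 6.73% of genes with a mean of at least 50 (2.87% and 3.86%).

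The 3 libraries of one group lay wholly above or below those of the other for 34 members, 15 higher and 19 lower in migratory cells. That is 20.6% of the members, beside 23.8% of all genes tested and 25.4% of genes with a mean of at least 50. By direction, 9.09% of members lay apart as higher and 11.5% as lower, beside 11.3% and 12.5% of all genes tested and 13.3% and 12.1% of genes with a mean of at least 50. These shares were at or below those of the whole table, so nothing is read from them about the carriers. All 165 members entered the test, and for 7 of them 1 group's mean was below 50. These reached the minimum through their other group, so the choice of members favours a large difference in them. SLC1A7, SLC22A15 and SLC45A4 are among them. The members nearest above the minimum were SLC26A1, SLC25A35 and SLC16A10, with means of 56.8, 60.5 and 62.6. Among the genes just below it were SLC13A3 and SLC38A5, with means of 45.8 and 44.5.

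**Figure D1:**
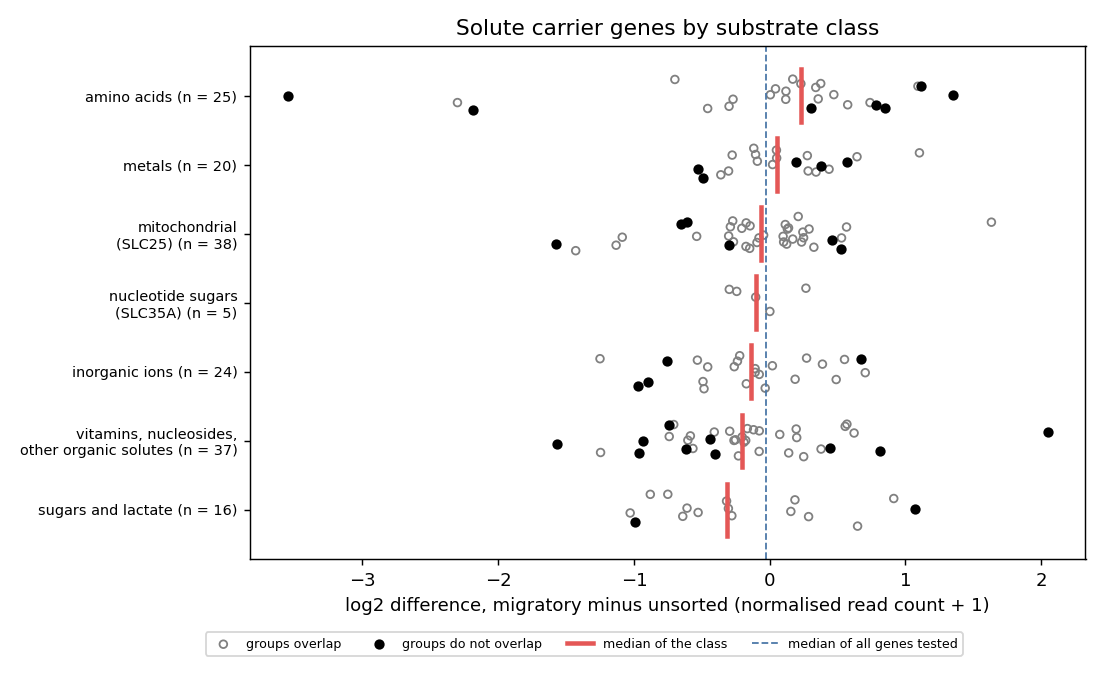
Difference between migratory and unsorted cells (x axis, log2 of the normalised read count + 1) for each of the 165 solute carrier genes, in rows by substrate class. Filled points are genes whose libraries do not overlap between groups, red bars are class medians, from 0.23 for amino acid carriers at the top to -0.31 for sugar and lactate carriers at the bottom, and the dashed line is the median of all genes tested.

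The class medians ran from 0.23 for amino acid carriers down to -0.31 for carriers of sugars and lactate. Between them lay metals at 0.05, mitochondrial SLC25 carriers at -0.062, nucleotide sugar carriers at -0.10, inorganic ions at -0.14 and the carriers of vitamins, nucleosides and other organic solutes at -0.20. Libraries of one group differed by as much as most of these medians. Unsorted replicate 2, the deepest library, had the highest value of the 6 for 42 of 165 members, and migratory replicate 1 had the lowest for 50. Over all genes tested these libraries held the extreme for 2574 and 3690 of 15786. Without unsorted replicate 2 the median of all members was 0.023 and that of the ion carriers 0.20, both on the other side of 0. Depth moved with that library, and its part in the medians was not tested. The median coefficient of variation of a member was 22.1% in unsorted and 25.6% in migratory libraries, beside 19.99% and 22.4% for all genes with a mean of at least 50. It was smallest for mitochondrial and nucleotide sugar carriers in unsorted cells (17.2% and 16.3%) and largest there for ion carriers (34.0%).

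**Figure D2:**
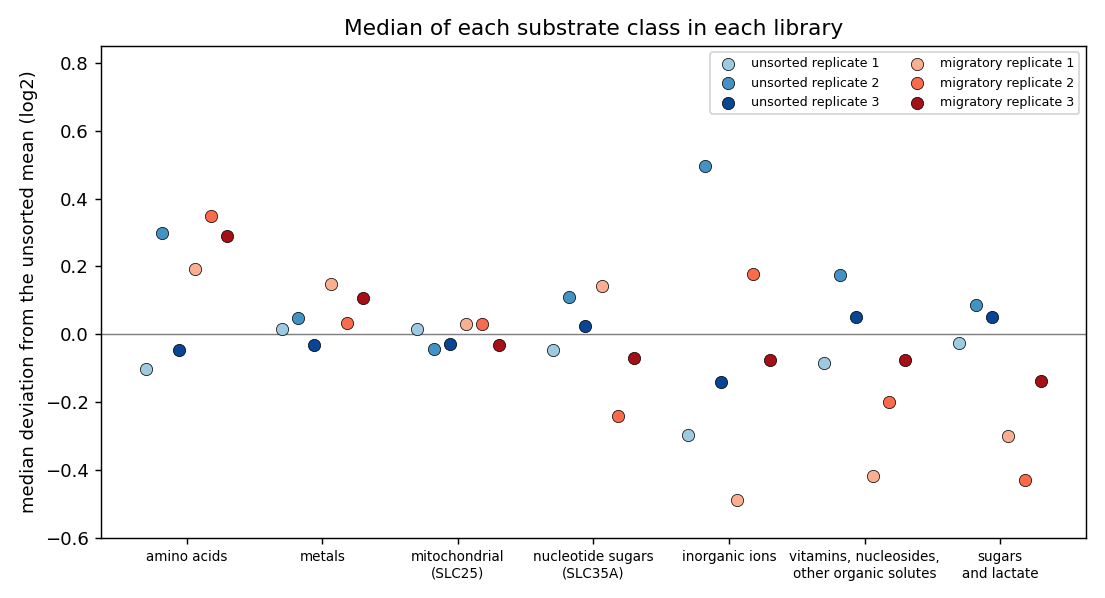
Median deviation of each substrate class from its unsorted mean (y axis, log2) in each of the 6 libraries (points, blue shades for unsorted and red shades for migratory replicates 1 to 3). For amino acid carriers unsorted replicate 2 lies at 0.30, within the migratory range. For sugar and lactate carriers the 3 migratory libraries lie below the 3 unsorted ones, from -0.43 to -0.14. For ion carriers unsorted replicate 2 lies at 0.50 and migratory replicate 1 at -0.49.

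Levels between genes were compared per kilobase of exon, since the deposited counts are not scaled for length. The carrier with the highest level per kilobase was SLC25A5, the ADP/ATP carrier of the inner mitochondrial membrane, at 12995 ± 997 (unsorted) against 14263 ± 1733 (migratory), each a mean ± SD over 3 libraries. Exon length is the union over all annotated transcripts, which lowers the value of genes with many of them. It has 9 annotated pseudogenes named after it and an antisense gene over 15.1% of its exon length, so its level is uncertain. Next came the amino acid carrier SLC38A2, then the glucose carrier SLC2A1, then SLC3A2, the heavy chain that brings several amino acid exchangers to the surface. SLC38A2 was at 8270.4 ± 1536 (unsorted) against 10739 ± 2739 (migratory), SLC2A1 at 6596 ± 1199.9 (unsorted) against 7467 ± 953 (migratory) and SLC3A2 at 4377 ± 598 (unsorted) against 6301 ± 2081 (migratory), all per kilobase. SLC38A2 was above SLC2A1 in each of the 6 libraries, although their ranges overlapped. The equilibrative nucleoside carrier SLC29A1, the phosphate carrier SLC20A1 and the mitochondrial carrier SLC25A39 followed. The 5 highest members made up 37.2% of the summed level per kilobase of all members and the 20 highest 69.6%. The median member was at 156 per kilobase over all libraries, 23 members were at 1000 or more and 61 were under 100.

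**Figure D3:**
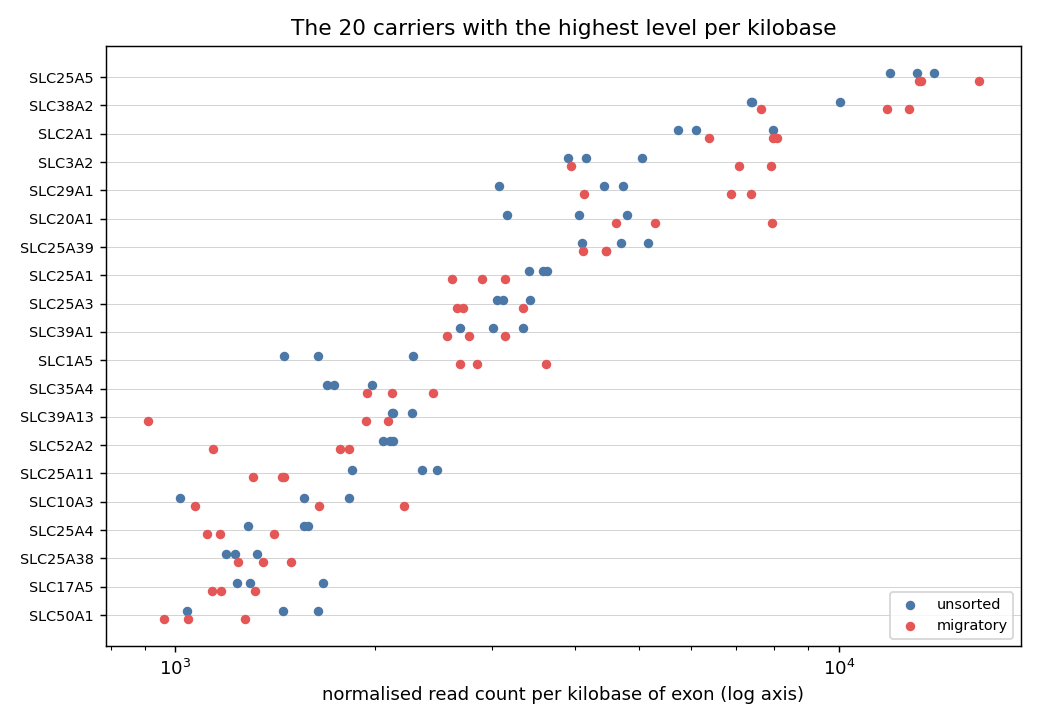
Normalised read count per kilobase of exon (x axis, log scale) in each library for the 20 solute carriers with the highest level, blue points for unsorted and red for migratory libraries. SLC25A5 is highest in both groups, and for 1 of the 5 highest, SLC2A1, 2 migratory libraries nearly coincide with unsorted replicate 2.

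Amino acid carriers had higher values for 18 of 25 members in migratory cells, against 7 lower, with a median of 0.23. By library, the median deviation from the unsorted mean was -0.10, 0.30 and -0.05 in unsorted replicates 1 to 3. In migratory replicates 1 to 3 it was 0.19, 0.35 and 0.29, so unsorted replicate 2 lay within the migratory range. Of all genes tested 48.1% had a higher value, and 51.6% of those with a mean of at least 50. Without unsorted replicate 1 the median was 0.099, and without unsorted replicate 3 it was 0.15. Upper-quartile scaling and TMM factors each gave 17 higher and 8 lower. Groups did not overlap for 5 higher and 2 lower members of 25, 28.0% beside 23.8% of all genes tested. DESeq2 passed 5 of 25, beside 5.91% of all genes, with SLC1A5, SLC38A1 and SLC36A1 as higher and SLC1A7 and SLC7A4 as lower. SLC1A7 (chromosome 1, 53087179 to 53142632 on GRCh38) is a glutamate carrier known from the retina. Its normalised read count was at 301, 315 and 502 in unsorted replicates 1 to 3 and at 62.9, 8.59 and 47.9 in migratory replicates 1 to 3. All migratory libraries lay far below all unsorted ones, 9.36-fold lower in the mean. Its migratory mean of 39.8 was below 50, so SLC1A7 reached the minimum through its unsorted libraries. The log2 difference was -3.55 (SE 0.66), with an adjusted p of 0.062 in limma and 1.0e-05 in DESeq2. SLC7A4 (chromosome 22, 21028718 to 21032840), which resembles the cationic amino acid carriers in sequence, was at 300.3, 306 and 147 in unsorted replicates 1 to 3 and at 45.6, 55.8 and 53.6 in migratory replicates 1 to 3. The groups were again apart, with the migratory libraries close to each other. Its log2 difference was -2.19 (SE 0.40), with an adjusted p of 0.062 in limma and 9.5e-05 in DESeq2. Both are low-level carriers, at 38.1 and 61.9 per kilobase.

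Among the higher values that lay apart were those of carriers of glutamine and other neutral amino acids. SLC1A5 (chromosome 19, 46774883 to 46788594), which exchanges neutral amino acids and takes up glutamine, was at 5464, 7611 and 4862 in the unsorted libraries and at 8962, 12073 and 9497 in the migratory libraries. Every migratory library was above every unsorted one, with a log2 difference of 0.78 (SE 0.21) and a limma adjusted p of 0.12. An opposite-strand gene covers 23.4% of its exon length, and without strand marks reads in that part cannot be assigned to either gene. SLC38A1 (chromosome 12, 46183063 to 46270017), a sodium-coupled carrier of neutral amino acids, was at 4689.5, 8943 and 6514 in the unsorted libraries and at 11297, 10812 and 13093 in the migratory libraries. The groups did not overlap there either, and the log2 difference was 0.85 (SE 0.23, limma adjusted p of 0.12). SLC36A1 (chromosome 5, 151437046 to 151492381), a proton-coupled carrier found on lysosomes, was at 187, 426 and 269 in the unsorted libraries and at 924, 827 and 467 in the migratory libraries, a log2 difference of 1.35 with a limma adjusted p of 0.13. SLC38A2, a close relative of SLC38A1 that is known to be induced when amino acids run short, was at 48652, 66311 and 48839.6 in the unsorted libraries and at 50344, 84359 and 78002 in the migratory libraries, and migratory replicate 1 lay among the unsorted libraries.

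Arginine and lysine enter through SLC7A1, which was at 828, 1010.1 and 372 in the unsorted libraries and at 1332, 2269.8 and 1055 in the migratory libraries. Groups lay apart by a narrow margin, with a log2 difference of 1.12 and a limma adjusted p of 0.21. SLC7A5, a light chain that pairs with SLC3A2 to take up leucine and other large amino acids, was at 2682, 4135 and 1711 in the unsorted libraries and at 3967, 6131 and 3630.2 in the migratory libraries. Unsorted replicate 2 overlapped the migratory range for SLC7A5, and 2 annotated pseudogenes carry its name. SLC3A2 itself was at 21556, 20275 and 26161 in the unsorted libraries and at 20431, 36576 and 40872 in the migratory libraries, with migratory replicate 1 as low as the unsorted libraries. The limma adjusted p was 0.28 for SLC7A5 and 0.35 for SLC3A2. Per kilobase, SLC3A2 stood at 5339 over all libraries, against 782 for SLC7A5 and 57.3 and 37.2 for the light chains SLC7A6 and SLC7A7. An opposite-strand gene covers 44.4% of the exon length of SLC7A6, so its level is uncertain. The glutamate carrier SLC1A3 was at 1354 ± 311 (unsorted) against 1103 ± 264 (migratory), and its groups overlapped.

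**Figure D4:**
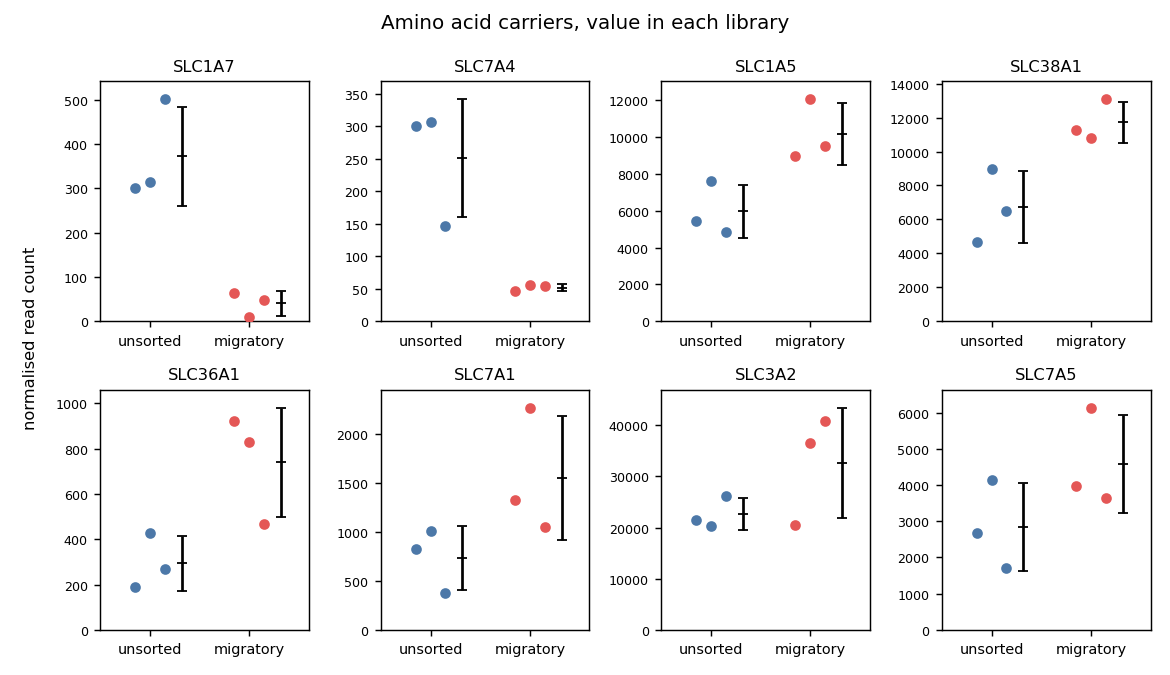
Normalised read count (y axes, each from 0) of 8 amino acid carriers in each library, blue for unsorted and red for migratory, with the mean and SD of each group as black bars. For SLC1A7 and SLC7A4 all migratory points lie below all unsorted points, for SLC1A5, SLC38A1, SLC36A1 and SLC7A1 above, and for SLC3A2 and SLC7A5 the groups overlap.

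Sequence upstream of the start site is given for 4 carriers whose groups lay apart and whose windows hold a motif searched, from RefSeq on GRCh38.p14, 5′ to 3′ on the strand of the gene and ending at the base before the start. Of the members 132 had an entry, with 190 start sites. The core of the amino acid response element, TGATGNAA on either strand, was searched in 250 bases before to 50 bases after each start. It was found at 6 of 38 start sites of amino acid carriers and at 10 of 190 start sites of all members. Of all 35093 start sites in the RefSeq set, 3.62% held it. That set was not limited to genes of the deposited table or to a mean of at least 50. The 6 amino acid carriers were SLC1A3, SLC1A4, SLC1A5, SLC38A1, SLC3A2 and SLC7A1. Their values were not all higher, since SLC1A3 was lower in the mean. SLC1A4 was nearly equal in the mean, at 199 ± 151 (unsorted) against 200 ± 35.8 (migratory). Its log2 difference, by which it is counted as higher, was 0.57 (SE 0.77). It ran from -0.51 to 1.20 with a library left out, and unsorted replicate 1 held its lowest value, 28.5. SLC3A2 overlapped between groups. SLC1A5 is shown at chr19:46784815-46785064 (minus strand, 1 of its 3 listed starts, inside the annotated gene) with the match in capitals, -97 bases from the start. SLC25A11, whose value was lower in migratory cells, is shown at chr17:4940047-4940296 (minus strand) because it holds the same core on the other strand, in capitals at -71.
SLC1A5: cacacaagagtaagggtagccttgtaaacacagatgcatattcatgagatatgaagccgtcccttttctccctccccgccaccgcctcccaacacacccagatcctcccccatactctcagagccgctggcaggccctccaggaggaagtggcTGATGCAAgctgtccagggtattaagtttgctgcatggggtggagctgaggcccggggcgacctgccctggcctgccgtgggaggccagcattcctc
SLC25A11: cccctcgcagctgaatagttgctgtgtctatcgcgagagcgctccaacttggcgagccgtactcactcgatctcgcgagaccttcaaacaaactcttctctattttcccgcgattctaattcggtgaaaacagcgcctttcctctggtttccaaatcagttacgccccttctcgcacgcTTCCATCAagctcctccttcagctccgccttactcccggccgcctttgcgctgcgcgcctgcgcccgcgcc
The E-box CACGTG is a palindrome read by MYC and by factors of lysosomal genes. It was at 7 of 38 start sites of amino acid carriers and 29 of 190 of all members, beside 7.25% of the RefSeq set. It holds the shorter hypoxia response core ACGTG, which was at 31.1% of member starts and 21.4% of all. SLC36A1 at chr5:151447353-151447602 (plus strand, 1 of 2 listed starts, inside the annotated gene) and SLC1A7 at chr1:53142639-53142888 (minus strand), which lay apart in opposite directions, both hold it, in capitals.
SLC36A1: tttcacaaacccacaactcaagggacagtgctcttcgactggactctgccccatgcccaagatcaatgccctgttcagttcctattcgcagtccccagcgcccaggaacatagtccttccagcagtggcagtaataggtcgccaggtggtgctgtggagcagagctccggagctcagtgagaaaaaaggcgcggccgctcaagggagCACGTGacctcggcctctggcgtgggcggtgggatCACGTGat
SLC1A7: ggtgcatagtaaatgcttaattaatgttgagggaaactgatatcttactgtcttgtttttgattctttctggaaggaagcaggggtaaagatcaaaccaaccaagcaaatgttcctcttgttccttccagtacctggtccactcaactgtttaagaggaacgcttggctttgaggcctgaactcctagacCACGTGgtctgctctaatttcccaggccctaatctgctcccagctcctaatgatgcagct
The GC box GGGCGG was also searched and was at 67.4% of member starts, beside 44.9% of all starts. The metal response core TGCNCNC was at 65.3% beside 55.9%, and the CREB site TGACGTCA at 3.16% beside 1.85%. The TATA box TATAAA was at 4.21% beside 11.5%, and the AP-1 site TGANTCA at 6.32% beside 7.7%. Member starts thus differed from the RefSeq set in several motifs. Members were chosen by level and that set was not, and the reason for the differences was not tested. A match describes these letters in this window and shows no binding.

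Carriers of sugars and lactate had lower values for 10 of 16 members, with a median of -0.31, and 0 of 16 passed limma, edgeR or DESeq2, while 1 higher and 2 lower members had an unadjusted limma p under 0.05, a share near the 17.7% of all genes. Without unsorted replicate 1 the median was -0.19. SLC2A1, the main glucose carrier of most cultured cells (chromosome 1, 42925375 to 42959176), was at 28826, 37619.9 and 27026 in the unsorted libraries and at 30087, 37575 and 38159 in the migratory libraries. Its groups overlapped, with a log2 difference of 0.19 (SE 0.17) and a limma adjusted p of 0.6. SLC2A3, a glucose carrier of high affinity, was at 1757, 2911 and 2221 in the unsorted libraries and at 1117, 1604 and 2115 in the migratory libraries, also with overlap. SLC16A3 (chromosome 17, 82228397 to 82261129), which carries lactate and protons out of glycolytic cells, was at 2998, 3858 and 3982 in the unsorted libraries and at 1278, 2182 and 3466 in the migratory libraries. Migratory replicates 1 and 2 lay below every unsorted library and migratory replicate 3 among them, and its log2 difference of -0.75 ran from -1.10 to -0.38 with a library left out. SLC16A1, the other main lactate carrier, was not analysed here. The inositol carrier SLC5A3 was at 7985, 13743 and 9717 in the unsorted libraries and at 4048, 7429 and 9359 in the migratory libraries, and migratory replicate 3 lay within the unsorted range. SLC37A1, which exchanges glucose 6-phosphate, and SLC2A13, a proton-coupled inositol carrier, had log2 differences of -0.99 and -0.88, and only SLC37A1 lay apart among the lower members of this class. SLC45A4 was at 46.8, 51.3 and 48.9 in the unsorted libraries and at 168, 94.5 and 70.7 in the migratory libraries, the 1 member of the class that lay apart as higher. Its unsorted mean was below 50, so SLC45A4 reached the minimum through its migratory libraries.

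Inorganic ion carriers had lower values for 16 of 24 members, with a median of -0.14, which was 0.12 when libraries were weighted by their spread. That count came with the library spread given above. Of these members 33.3% had a higher value, beside 48.1% of all genes tested. DESeq2 passed SLC26A6 and SLC12A8, both lower, 8.33% of the class beside 5.91% of all genes and 6.73% of those with a mean of at least 50. SLC26A6, an exchanger of chloride, bicarbonate and other anions (chromosome 3, 48625723 to 48635493), was at 1553, 2030.0 and 2240.1 in the unsorted libraries and at 1078, 1085 and 1249.6 in the migratory libraries. The migratory libraries lay close together and below the unsorted ones, at a log2 difference of -0.76 (SE 0.22, limma adjusted p of 0.14). SLC12A8, a relative of the cation-chloride cotransporters (chromosome 3, 125082636 to 125212864), was at 1069, 756 and 905 in the unsorted libraries and at 597, 494 and 385 in the migratory libraries, a log2 difference of -0.89 (limma adjusted p of 0.14). SLC4A11, a membrane carrier known from the corneal endothelium, was at 3324, 6490.0 and 4522 in the unsorted libraries and at 1259, 3136 and 3273 in the migratory libraries, and its groups lay apart by a small margin. In the SLC4 family of bicarbonate carriers and their relatives all 4 members had lower values, and unsorted replicate 2 held the highest value of the 6 libraries for each of them. With a library left out the log2 difference reached 0.11 for SLC4A2, 0.27 for SLC4A3 and 0.24 for SLC4A7, so 3 of the 4 changed sign. SLC4A7, a sodium bicarbonate cotransporter, was at 1121 ± 613 (unsorted) against 919.9 ± 204 (migratory). Its log2 difference of -0.17 was 0.24 without unsorted replicate 2.

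SLC12A2, which takes up sodium, potassium and chloride and raises cell volume, was at 287, 567 and 476 in the unsorted libraries and at 294, 492 and 499 in the migratory libraries, with a log2 difference of -0.03 (SE 0.35). Its groups overlapped, and the difference ran from -0.32 to 0.22 with a library left out, so its sign is not stable. Both sodium-phosphate carriers had higher values. SLC20A1, by far the most abundant ion carrier per kilobase, was at 17659, 22640.1 and 26734 in the unsorted libraries and at 25789, 29460.0 and 44261 in the migratory libraries. Unsorted replicate 3 overlapped the migratory range, and 3 annotated pseudogenes carry the name of SLC20A1. SLC20A2 was at 896, 1039 and 517 in the unsorted libraries and at 1328, 1324 and 1118 in the migratory libraries, without overlap. Their limma adjusted p were 0.25 and 0.27.

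Metal carriers went both ways, with 12 of 20 higher and a median of 0.05, and none passed limma, edgeR or DESeq2. At an unadjusted limma p under 0.05 there were 3 members, SLC39A9, SLC39A14 and SLC30A7, all higher, which is 3 of 20 beside 17.7% of all genes in either direction. SLC39A14, which takes up zinc, iron and manganese, was at 1954, 7664 and 2269 in the unsorted libraries and at 5005, 8176 and 8234 in the migratory libraries. Unsorted replicate 2 lay among the migratory libraries, and the log2 difference was 1.10 with an SE of 0.46. The zinc carrier SLC39A9 was at 1232, 1972 and 1315 in the unsorted libraries and at 2169.6, 2159.6 and 2238 in the migratory libraries, and its migratory libraries were nearly equal. SLC30A7, which moves zinc into the Golgi, was at 1595, 1416 and 1019 in the unsorted libraries and at 2709.8, 2132 and 1518 in the migratory libraries, with overlap. The copper carrier SLC31A1 was at 2746, 4656 and 3448 in the unsorted libraries and at 4556, 4684 and 5131 in the migratory libraries, with overlap by unsorted replicate 2. SLC30A1, which exports zinc and is induced by it, was at 1007, 1332 and 1689.7 in the unsorted libraries and at 900.4, 1083 and 1098 in the migratory libraries, with overlap. SLC39A6, a zinc carrier first found in breast cancer cells, was at 2953, 2981 and 2716 in the unsorted libraries and at 3341, 3003 and 3580.0 in the migratory libraries, which lay apart by a margin of less than its own spread. SLC39A1 had the highest level per kilobase of the class, and another gene on the same strand covers 60.8% of its exon length, so part of its reads may belong there.

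Mitochondrial SLC25 carriers showed no common direction, with 18 higher and 20 lower of 38 and a median of -0.062. DESeq2 passed SLC25A11 and SLC25A29, both lower, 5.26% of the class beside 5.91% of all genes, so the count is near the share of the whole table. SLC25A11, which exchanges malate for oxoglutarate in the malate-aspartate shuttle (chromosome 17, 4937130 to 4940251), was at 6282, 4937 and 6629.8 in the unsorted libraries and at 3864, 3891 and 3496 in the migratory libraries. The migratory libraries agreed closely and lay below all unsorted ones, at a log2 difference of -0.66 (SE 0.19, limma adjusted p of 0.13). A gene on the opposite strand covers 9.14% of its exon length. SLC25A29, a carrier of basic amino acids (chromosome 14, 100291111 to 100306547), was at 2318, 3424 and 2497 in the unsorted libraries and at 361, 1274 and 1620.1 in the migratory libraries, and its log2 difference of -1.58 ran from -1.99 to -0.91 with a library left out. Migratory replicate 1 held the lowest value of SLC25A29. SLC25A24, which exchanges ATP-magnesium for phosphate under control of calcium, was at 5222, 4586 and 4094 in the unsorted libraries and at 6953, 7438 and 5631 in the migratory libraries and lay apart as higher. SLC25A30, a relative of the uncoupling proteins, was at 34.3, 92.3 and 35.1 in the unsorted libraries and at 261, 166 and 79.8 in the migratory libraries, low in all libraries and overlapping.

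The phosphate and ADP/ATP carriers SLC25A3 and SLC25A5 overlapped between groups. SLC25A3, which brings phosphate into mitochondria, was at 30521, 27148 and 27742 in the unsorted libraries and at 29774, 24136 and 23682 in the migratory libraries, and its log2 difference was -0.14 (SE 0.15). SLC25A5 was at 19691, 17907 and 20879 in the unsorted libraries and at 24395, 19823 and 19966 in the migratory libraries, at 0.13 (SE 0.15). The citrate carrier SLC25A1 was at 7512, 7161 and 7619.8 in the unsorted libraries and at 5474, 6071 and 6589 in the migratory libraries, which lay apart as lower at a log2 difference of -0.30 (SE 0.16), and 5 pseudogenes carry its name. SLC25A6, another ADP/ATP carrier, was at 118, 71.3 and 122 in the unsorted libraries and at 71.5, 103 and 95.8 in the migratory libraries. It lies in the pseudoautosomal region, annotated on X and Y, and 6 pseudogenes carry its name, so reads may not have been placed at a single copy and its low level is uncertain. The nucleotide sugar carriers SLC35A1 to SLC35A5 all overlapped between groups. SLC35A4 had the highest level per kilobase among them and was at 6809, 7964 and 6985 in the unsorted libraries and at 9859, 8553 and 7823 in the migratory libraries. The UDP-galactose carrier SLC35A2 was at 3815, 5664 and 4771 in the unsorted libraries and at 3618, 3828 and 4491 in the migratory libraries. SLC35A1, which carries CMP-sialic acid, and SLC35A5 had log2 differences of -0.30 and -0.10, and a same-strand gene covers 55.5% of the exons of SLC35A1.

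Of the 37 carriers of vitamins, nucleosides and other organic solutes, 25 had lower values, with a median of -0.20. Values lay apart for 7 as lower and 3 as higher, 27.0% beside 23.8% of all genes tested. DESeq2 passed SLC16A5 as lower and SLC5A6 as higher, 5.41% beside 5.91% of all genes, and both shares lie near those of the whole table. SLC16A5, a relative of the lactate carriers (chromosome 17, 75087727 to 75106162), was at 512, 364 and 467 in the unsorted libraries and at 236, 196 and 252 in the migratory libraries. Its log2 difference was -0.96 (SE 0.28, limma adjusted p of 0.14). SLC5A6, which takes up biotin and pantothenate (chromosome 2, 27199587 to 27212958), was at 942, 1434 and 1201 in the unsorted libraries and at 2126, 2635 and 1563 in the migratory libraries, at 0.81 (SE 0.26, limma adjusted p of 0.17). Nucleoside carriers of the SLC29 family differed among themselves. SLC29A1, the equilibrative carrier of the plasma membrane, was at 13579.9, 20829 and 19493 in the unsorted libraries and at 18196, 30377 and 32558 in the migratory libraries, with overlap. The lysosomal carrier SLC29A3 was at 971, 1034 and 1184 in the unsorted libraries and at 624, 761 and 695 in the migratory libraries, apart as lower. SLC29A4, which carries monoamines, was at 242, 137 and 98.7 in the unsorted libraries and at 32.1, 55.8 and 67.3 in the migratory libraries, also apart as lower. SLC22A15 had the largest higher difference of any member, 2.05 (SE 0.76), from values at 6.85, 55.2 and 56.3 in the unsorted libraries and at 82.6, 125 and 169 in the migratory libraries. Without unsorted replicate 1, which held its lowest value, that difference was 1.10. Its unsorted mean was below 50, so SLC22A15 reached the minimum through its migratory libraries.

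**Figure D5:**
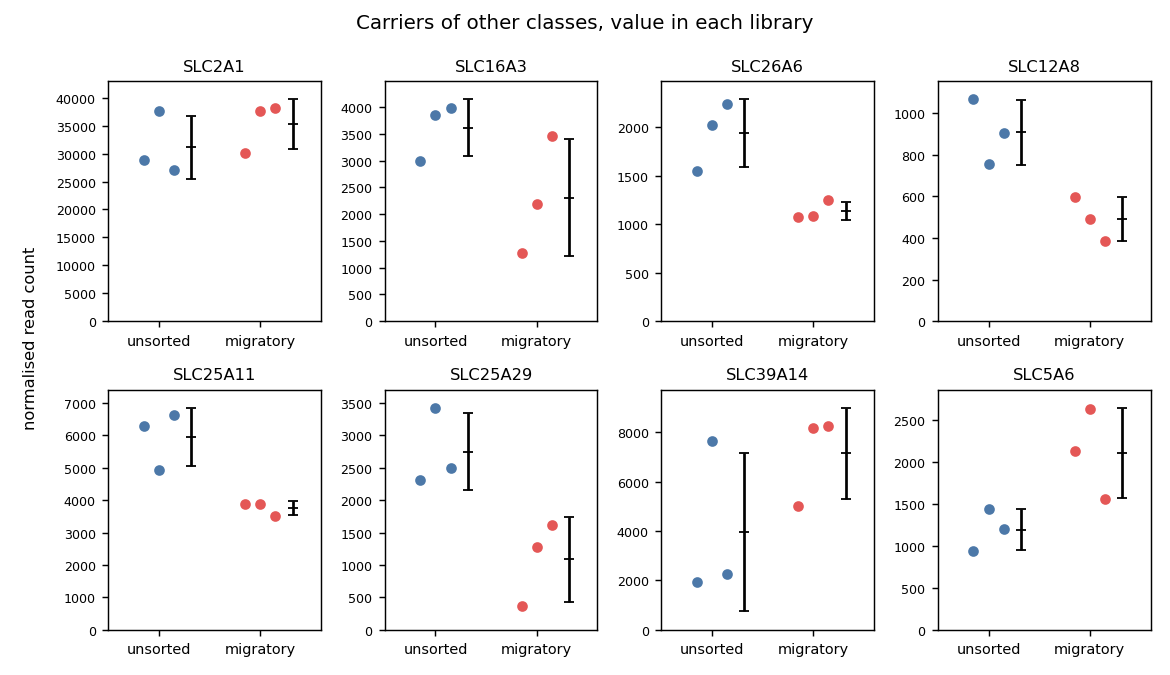
Normalised read count (y axes, each from 0) of 8 carriers of other classes in each library, blue for unsorted and red for migratory, with the mean and SD of each group as black bars. The groups overlap for SLC2A1, SLC16A3 and SLC39A14, the migratory points lie below for SLC26A6, SLC12A8, SLC25A11 and SLC25A29, and above for SLC5A6.

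Genes that work with these carriers were read from lists, and no member of them passed limma. At an unadjusted limma p under 0.05 there were 8 higher and 0 lower for amino acid enzymes, 1 higher and 4 lower for glucose and lactate enzymes and 0 higher and 3 lower for carbonic anhydrases, and DESeq2 passed 4 higher and 0 lower, 0 higher and 0 lower and 0 higher and 3 lower. Over all genes tested the shares were 7.7% higher and 10.0% lower at that unadjusted p, 2.31% higher and 3.6% lower by DESeq2, and 11.3% apart as higher and 12.5% as lower. Amino acid enzymes had higher values for 10 of 14 (median 0.48), with 7 apart as higher and none as lower. BCAT1, which starts the breakdown of branched amino acids, was at 2520.0, 2708 and 2007 in the unsorted libraries and at 4461, 4087 and 4036 in the migratory libraries. The serine synthesis enzyme PSAT1 was at 2571, 3091 and 3533 in the unsorted libraries and at 5162, 5292 and 9346 in the migratory libraries. Neither overlapped between groups. Glucose and lactate enzymes had a median of 0.00 over 15, and PGK1 and LDHA, both of glycolysis, lay apart as lower. PGK1 was at 111088 ± 6468 (unsorted) against 80891 ± 6973 (migratory) and LDHA at 403301 ± 15684 (unsorted) against 325704 ± 32402 (migratory). Of 4 carbonic anhydrases, which interconvert carbon dioxide and bicarbonate beside ion carriers, 3 lay apart as lower. CA2 was at 236, 296 and 202 in the unsorted libraries and at 58.0, 64.4 and 69.5 in the migratory libraries. CA12 was at 1748, 1522 and 1288 in the unsorted libraries and at 451, 872 and 422 in the migratory libraries. Their limma adjusted p were 0.06 and 0.08. The 4 measured genes of the sodium pump overlapped between groups, with log2 differences of -0.30 for ATP1B1 and 0.09 for ATP1B3. BSG, which escorts lactate carriers to the surface, was at 85827 ± 15793 (unsorted) against 66804 ± 9350.1 (migratory), and MPC1, part of the mitochondrial pyruvate carrier, was at 1654 ± 339 (unsorted) against 2087 ± 455 (migratory). Both overlapped.

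The labelled cell line was checked against its known markers. The 7 genes known as high in MDA-MB-231, VIM, CD44, AXL, EGFR, CAV1, ANXA1 and LGALS1, had summed values of 167494 to 188709.9 in the unsorted and 215299.8 to 230205 in the migratory libraries. CDH1, lost in this line, had 0 to 28.3 normalised read counts in any library, while the other measured genes of the list low in the line were not near 0. EPCAM was at 2293 ± 708 (unsorted) against 1982 ± 441 (migratory) and ERBB2 at 1029 ± 392 (unsorted) against 1095 ± 563 (migratory). ESR1 and PGR were not analysed here. All 5 measured of 8 fibroblast markers were lower in the mean in migratory cells, with sums of 2772 to 4183 in the unsorted and 818 to 2111 in the migratory libraries. Groups lay apart for 2 of the 5, COL1A1 and COL1A2, beside 12.5% of all genes apart as lower. The other measured fibroblast markers overlapped, and none passed limma (smallest adjusted p of 0.12). For endothelium 4 of 7 markers were measured, with sums of 1319 to 1880.5 in the unsorted and 640.2 to 987 in the migratory libraries. PECAM1 made up most of that sum, at 1565 ± 316 (unsorted) against 783 ± 197 (migratory), while KDR went the other way in the mean, at 42.2, 41.0 and 0 in the unsorted libraries and at 53.0, 34.3 and 74.1 in the migratory libraries. For blood cells 3 of 9 were measured, with sums of 322 to 421 in the unsorted and 30.8 to 133 in the migratory libraries. Within the blood list CD14 was at 411, 375 and 283 in the unsorted libraries and at 107, 64.4 and 25.1 in the migratory libraries, apart as lower. Keratinocyte markers (3 of 8) summed to 4327 to 5774 in the unsorted and 3993 to 7033 in the migratory libraries, and no erythroid marker was measured. Cultured tumour cells can express such genes, and the part of these markers in the carriers' values was not tested. In bulk RNA, fewer cells with a transcript and less of it per cell cannot be told apart. Mitochondrial-encoded transcripts took 1.37% to 2.17% of reads in the unsorted and 0.951% to 1.57% in the migratory libraries.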

How the data were processed

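Each deposited signal is a gene's read count over a size factor of its library and is not scaled for length. The submitters' processing notes name HISAT2, HTSeq and DESeq2, and hg38 and GRCh38.p7 as builds. Versions, settings and the role of each tool: not given in the sources used here. Whole reads were recovered from the value of a single read in each library, for 100% of deposited values within 0.01 read. The chemistry in the labels marks neither strand nor molecule. limma 3.58.1 (R 4.3.3) was run with its mean-variance trend on log2 of the value + 1, two-sided, over 15786 genes with a mean of at least 10 (472 removed). The added 1 pulls log2 differences of low values toward 0. A single low library can still enlarge them beside the ratio of group means, since logs are averaged. SLC16A10, with 0 in migratory replicate 1, had a log2 difference of -2.30 against a mean ratio of 0.48 (migratory over unsorted). edgeR 4.0.16 and DESeq2 1.42.0 on recovered reads were alternatives, and DESeq2 gave no adjusted p for 3 genes, which stayed without one. On recovered reads edgeR called 23 genes and DESeq2 933. The limma and edgeR steps were tested on simulated counts. Members were named if among the 4 smallest p or the highest level of their class, among the 5 largest non-overlapping differences in each direction, nearest the mean of 50, or in a set of known carriers, and the 2 smallest p of each other list were named. SLC1A4, SLC4A2, SLC4A3, SLC20A2, SLC7A6, SLC7A7, SLC25A39 and ERBB2 were added after their values were seen, and some genes that the rule names are not reported here. Members, classes and lists were chosen with earlier results of these data known. Coordinates, exon lengths and overlaps come from GENCODE release 29 on GRCh38, matched by symbol for all 165 members. Overlap above 5% of exon length affects 39 of them, and 21 have a pseudogene named after them. How shared reads were counted is not given. No column was left unused.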

Additional observations from a re-analysis of the deposited data

How the results depend on the processing

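No solute carrier passed limma with any single library left out (0 in each of 6 fits), with a pseudocount of 0.5, with no filter, with edgeR, or with members taken at a mean of 20 or 100. SLC1A7 was the 1 member called with a pseudocount of 10, with all tested genes at a mean of 50, and with the replicate number as a block. Upper-quartile scaling called 2 (SLC1A7 and SLC7A4), array weights 5 and DESeq2 11. Over the whole table the count was 37 genes, and it was 97 with a pseudocount of 10, 78 with the filter at 50, 23 with edgeR, 21 with TMM factors, 933 with DESeq2, 85 with upper-quartile scaling, 507 with array weights and 114 with the replicate block. It was 29 with a pseudocount of 0.5 and 33 with no filter, and ran from 1 to 44 with a library left out. Same-numbered libraries deviated together at r of 0.12, 0.11 and 0.04. Unsorted replicates 1 and 2 correlated best with the same number, and unsorted replicate 3 with migratory replicate 1 (0.05). Deviations sum to 0 within each group of 3, so these values do not settle whether libraries are paired.

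With array weights the median was 0.043 for all members, 0.15 for metals, 0.12 for inorganic ions (-0.14 without weights) and -0.014 for SLC25, and with members at a mean of 100 that of SLC25 was 0.027. With a library left out the medians ran from -0.13 to 0.023 for all members, 0.099 to 0.30 for amino acids, -0.37 to -0.19 for sugars and lactate, -0.31 to 0.20 for inorganic ions, 0.034 to 0.17 for metals, -0.041 to 0.017 for SLC25, -0.19 to -0.035 for nucleotide sugars and -0.34 to -0.07 for the other organic solutes. The cause was not tested. Of 49 members named by rule, 46 kept their direction in all 16 refits. The other 3, SLC12A2 and SLC4A7 among them, did not, and none of the 3 was called. For members near 50 normalised read counts, counting error adds to the spread between libraries.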

Other observations

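Transporters of other superfamilies and carriers under other names were read in the same libraries, and none passed limma at 0.05. Of the ABC transporters 0 higher and 7 lower had an unadjusted limma p under 0.05, and DESeq2 passed 0 higher and 4 lower, beside 10.0% of all genes tested lower at that p and 3.6% lower by DESeq2. ABC transporters, which spend ATP to move their cargo, had lower values in migratory cells for 13 of 19 measured (median log2 difference -0.50), and the groups lay apart for 6, all lower, beside 12.5% of all genes apart as lower. The sterol exporter ABCG1 was at 614, 1004 and 612 in the unsorted libraries and at 60.4, 100.2 and 286 in the migratory libraries. Its groups did not overlap, and its log2 difference was -2.58 (limma adjusted p of 0.075). The lipid transporter ABCA7 was at 456, 350.2 and 353 in the unsorted libraries and at 199, 192 and 109 in the migratory libraries, also apart. Of 3 measured SLCO carriers, which take up organic anions, SLCO4A1 lay apart as lower, at 10869 ± 2717 (unsorted) against 6268 ± 837 (migratory), each a mean ± SD over 3 libraries, and SLCO1B3 as higher, at 197 ± 24.4 (unsorted) against 264 ± 31.3 (migratory). UCP2, a mitochondrial carrier of the uncoupling protein group, lay apart as lower, at 16328 ± 310.5 (unsorted) against 11652 ± 1387 (migratory), and MTCH1 overlapped, at 33933 ± 8195 (unsorted) against 31084 ± 7094 (migratory).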
